A study of Bos taurus with 8 samples.

Results

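Oxidative phosphorylation subunits are the proteins of respiratory complexes I to IV and of ATP synthase, which is also called complex V. They were taken as all genes whose symbol in the platform annotation starts with NDUFA, NDUFB, NDUFC, NDUFS or NDUFV and a digit, is SDHA, SDHB, SDHC or SDHD, starts with UQCR, with COX4 to COX8 and a letter from A to C or with ATP5, or is CYC1. This gave 79 genes with 124 probes among 15229 named genes and 43794 gene probes on the array. Complex I held 37 genes, complex II 4, complex III 8, complex IV 14 and complex V 16. A total of 78 genes with 123 probes passed the filter on dim probes. The gene that did not was COX6A2, the muscle form of a complex IV subunit, whose 1 probe was not well above background in either group on any array.

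Complexes I and II pass electrons from NADH and succinate to ubiquinone, complex III passes them on to cytochrome c, and complex IV hands them to oxygen. Complexes I, III and IV pump protons across the inner mitochondrial membrane, and ATP synthase uses the gradient to make ATP. Most subunits are encoded in the nucleus, and a small set of core subunits in mitochondrial DNA. In granulosa cells, the cells around the oocyte that make estradiol and progesterone, the inner membrane also holds the electron transfer chain that starts steroid synthesis from cholesterol. The rule names nuclear genes only. The mitochondrially encoded subunits were not analysed here.

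The samples were cultured bovine granulosa cells with or without follicle-stimulating hormone (FSH), the pituitary hormone that drives their growth and estradiol synthesis. Cells came from slaughterhouse follicles of 2 to 6 mm, with 4 follicles for each biological replicate, were passed through a mesh of 104 µm and were cultured for 48 h. The treated cells had FSH at 1 ng/ml in the last 4 h, and the control cells had none. The comparison asks which transcripts differ within 4 h of the hormone. Each of 8 two-colour arrays carried a control and an FSH-treated sample. On 4 arrays FSH was in Cy5 and on 4 in Cy3, with replicates 1 to 4 in each orientation. The labels speak of 8 biological replicates but number 4. Arrays of the same number deviated together from the mean of their orientation (r from 0.787 to 0.924 across probes), so their mean was taken as 1 replicate, and values below are over 4 replicates. The orientations were hybridised on different slides, so slide and dye orientation cannot be told apart. Both conditions were on every array.

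Between 71.4% and 84.2% of gene probes exceeded the 95th percentile of the negative controls, depending on the array and the dye. In cultured cells from whole follicles, other cell types can be present. All 10 granulosa markers were measured, and 9 of them were above background in both channels on all 8 arrays. Among theca, endothelial, smooth muscle, stromal, immune, erythrocyte and oocyte markers, STAR, which granulosa cells also make, ACTA2, CNN1, PDGFRA, COL1A2 and DCN had a mean log2 intensity over 9. Of the 4 smooth muscle markers 2 were above 0 and 2 below in FSH over control, with log2 ratios of 0.17 for DES, 0.0087 for CNN1, -0.064 for MYH11 and -0.38 for ACTA2. None passed in limma (adjusted p = 0.25 for ACTA2, the lowest), and the blocked fit described below called ACTA2 (adjusted p = 0.0294). Stromal markers summed to 11762 intensity units in the control cells of replicate 1 and to 2871 in those of replicate 2, against 11335 and 3722 with FSH. Smooth muscle markers lay between 7079 and 12788 in control cells and between 5637 and 9216 with FSH. Endothelial markers lay between 459 and 705 and between 549 and 681, and immune markers between 627 and 1520 and between 783 and 2525. All 4 stromal markers were above 0 in FSH over control, up to 0.43 ± 0.18 for DCN. Of 3 tested endothelial markers 2 were above 0 and 1 below. KDR, on a dim probe (mean log2 intensity 7.27), had ratios of 0.81, 1.64, 0.0023 and 0.76. The lowest adjusted p in limma was 0.269 for stromal and 0.358 for endothelial markers. Without replicate 3 the blocked fit called DCN and KDR (adjusted p = 0.0266 and 0.014). Fewer cells of a type and less RNA per cell cannot be told apart in such samples. Their part in the values below was not tested. Replicate 3 stood apart: across the 4909 named genes with a mean log2 intensity over 9, its ratios correlated with those of replicates 1, 2 and 4 at -0.10, -0.11 and 0.26, while the other 3 correlated with each other at 0.48 to 0.75. CYP19A1, the aromatase that FSH induces, had ratios of 0.99, 1.36, 0.22 and 0.55 in replicates 1 to 4. Over all tested probes, its array with FSH in Cy5 correlated at -0.35 and -0.40 with the opposite arrays of replicates 1 and 2. The labels state the dye of each condition, so the direction was kept. Summary values are also given without replicate 3.

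No oxidative phosphorylation gene passed the test, and the measured differences were small. Of 123 probes, 0 had an adjusted p under 0.05 in limma (two-sided, Benjamini-Hochberg over 36528 probes, of which 0% passed). Adjusted p reached down to 0.202. An unadjusted p under 0.05 was found for 13 member probes, 11 higher and 2 lower with FSH, beside 12.2% of all tested probes. Among probes with a mean log2 intensity over 9 it was found for 12 of 103 member probes and for 2155 of all 8799. A ratio of the same sign in all 4 replicates was found for 24 probes, 17 above 0 and 7 below, where 20.4% of all probes had one. Taken by the brightest probe of each gene, 48 of 78 genes were above 0 and 30 below, with a median log2 ratio of 0.025. The median over all 13603 named genes was -0.0046, with 48.1% of them above 0. In replicates 1 to 4 the median over the members was 0.029, 0.0069, 0.025 and 0.085. Without replicate 3 it was 0.0265.

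The mean ratios lay in a narrow range. They ran from -0.46 for NDUFS1 to 0.36 for UQCR11, and 0 of 78 genes exceeded a size of 0.5, which is a change of 1.41-fold. For 65 genes (83.3%) the whole 95% interval of the mean lay within 0.5 of 0, so a change larger than 1.41-fold was outside the interval for each of these. For the other 13 the interval reached further. Probes of the 78 genes were mostly bright, 76 of 78 being above background in both channels on all 8 arrays. Dim probes compress ratios, so the comparison with other genes was limited to a mean log2 intensity over 9. This limit did not match the brightness of the sets: the median log2 intensity above it was 12.92 in members and 10.82 in all named genes. Among the 72 members with a mean log2 intensity over 9 the median size, with the sign dropped, was 0.10 and the 90th percentile 0.26. Over all 4909 named genes above the same limit these were 0.16 and 0.54, and 549 of them exceeded 0.5. The interval lay within 0.5 of 0 for 61 of the 72 members (84.7%) and for 55.8% of the 4909.

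**Figure D1:**
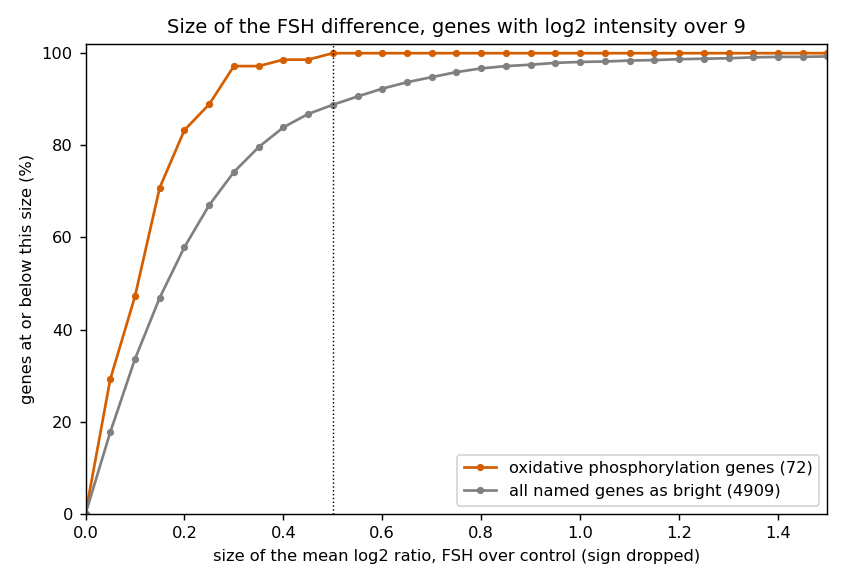
Share of genes (%, vertical axis) whose mean log2 ratio of FSH over control, with the sign dropped, is at or below the size on the horizontal axis. Orange points are the 72 oxidative phosphorylation genes with a mean log2 intensity over 9. Grey points are all 4909 named genes above the same limit, which are dimmer in the median. The dotted line marks 0.5, which none of the 72 members and 549 of the 4909 exceed.

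A fit on all 8 arrays, in which the number was a random replicate block and the dye a term, called 5 member probes at an adjusted p under 0.05, 4 higher and 1 lower with FSH, beside 3.50% of all tested probes. These were probes of NDUFB2, NDUFS6, COX7A2 and ATP5F1C above 0 and of NDUFS1 below 0. This fit shares 1 within-replicate correlation among all probes, so its p-values do not rest on the 4 replicate means alone. Among probes with a mean log2 intensity over 9, the fit called 4 higher and 1 lower of 103 member probes. Of all 8799 such probes it called 509 higher and 339 lower. All 5 member probes were also called when replicate 3 was left out of that fit, a setting chosen after the data were seen. It called 11 member probes beside 7.20% of all. The 6 that were added belong to NDUFA3 (2 probes), NDUFB7, NDUFV1, UQCRC1 and ATP5F1D, all above 0 there. With a mean log2 intensity over 9, this setting called 9 higher and 1 lower of 103 member probes. Of all 8799 such probes it called 907 higher and 768 lower. Levels of the control and FSH channels did not overlap over the 4 replicates for 4 member probes, those of NDUFA1, NDUFA2, NDUFB2 and NDUFS1, beside 2.98% of all probes.

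**Figure D2:**
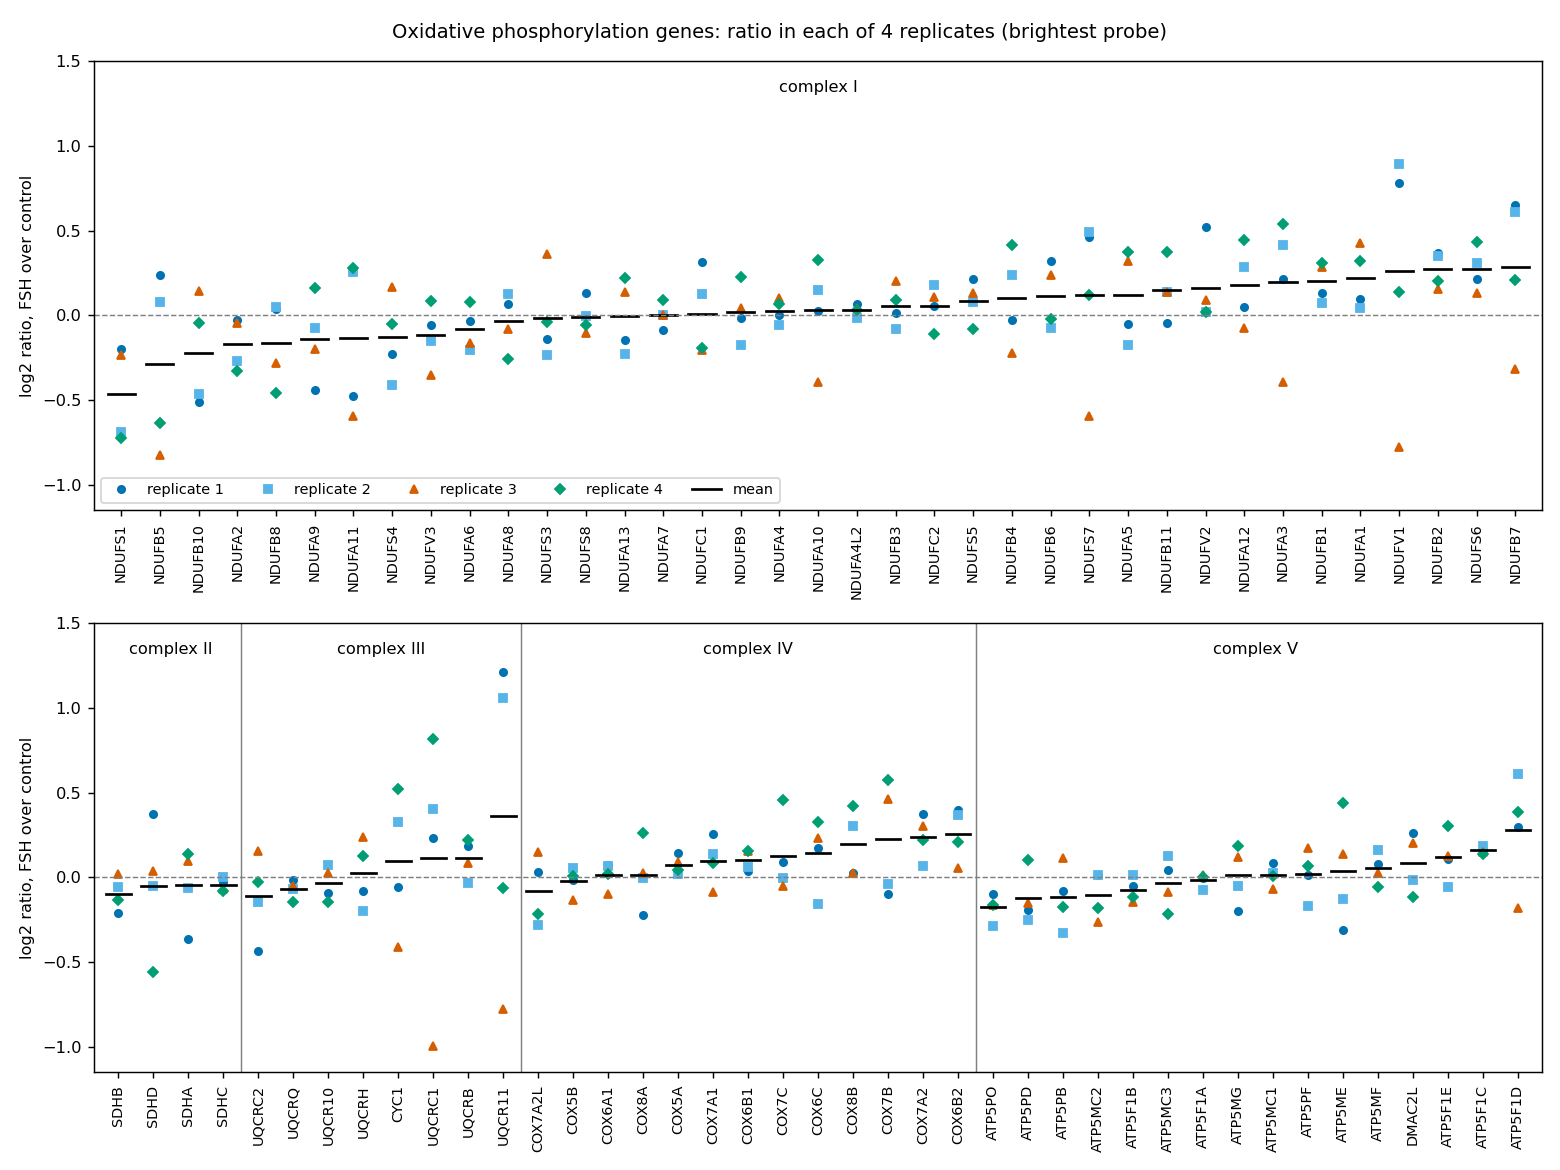
Log2 ratio of FSH over control (vertical axis) of each of the 78 tested genes by its brightest probe, ordered within each complex by the mean. Coloured symbols are the 4 replicates, each the mean of a dye-swap pair, and black bars their mean. No mean exceeds 0.5 in size, and the widest spreads are those of UQCR11, UQCRC1 and NDUFV1.

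Complex I, NADH dehydrogenase, was represented by 37 tested genes, of which 23 were above 0 and 14 below, with a median of 0.030. The median was 0.028 without replicate 3. Its 3 genes of lowest unadjusted p were NDUFB2, NDUFS6 and NDUFS1. NDUFB2, an accessory subunit of the membrane arm, had control levels of 13.47, 13.41, 13.74 and 13.66 and FSH levels of 13.84, 13.76, 13.90 and 13.87 (log2, replicates 1 to 4). All FSH levels were above all control levels. The ratios were 0.37, 0.35, 0.16 and 0.21, with a mean of 0.27 ± 0.06 (SE, n = 4) or 1.21-fold, above 0 on all 8 arrays. Limma's adjusted p was 0.258, and 0.0409 with the replicate block and dye term.

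NDUFS6, an accessory subunit that binds zinc, had ratios of 0.21, 0.31, 0.13 and 0.44. It was above 0 on 8 of 8 arrays and in each replicate, although control and FSH levels overlapped, with replicate 3 high in both. The mean was 0.27 ± 0.06 (adjusted p = 0.278 in limma, 0.0452 with the block). NDUFS1 carries iron-sulfur clusters of the arm that takes electrons from NADH. Its brightest probe had ratios of -0.20, -0.69, -0.24 and -0.72, below 0 on 7 arrays of 8 and lowest in replicates 2 and 4. The mean of -0.46 ± 0.12 was the furthest from 0 of all members, with an adjusted p of 0.297 in limma and 0.0459 with the block. The other 2 probes of the gene had means of -0.21 ± 0.11 and -0.17 ± 0.09, each above 0 in replicate 3.

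The remaining core subunits of complex I did not share a direction. NDUFV1, which binds NADH and flavin, and NDUFV2, an iron-sulfur protein beside it, had means of 0.26 ± 0.30 and 0.16 ± 0.10. NDUFS7, which holds the cluster nearest to ubiquinone, was at 0.12 ± 0.20. NDUFS3 and NDUFS8 were at -0.012 ± 0.111 and -0.0074 ± 0.0554. Of the 29 genes classed as accessory, 18 were above 0 and 11 below, with a median of 0.030. NDUFA1 and NDUFB1, small subunits of the membrane arm, were above 0 in all 4 replicates, at 0.22 ± 0.08 and 0.20 ± 0.06, with adjusted p of 0.391 and 0.322. NDUFA4 carries a complex I name but is now counted with complex IV, and NDUFA4L2 is its paralogue. Both lay close to 0, at 0.0278 ± 0.0465 and 0.0312 ± 0.0399, with 95% intervals of -0.09 to 0.15 and -0.07 to 0.135. The NDUFA4L2 probe was dim, above background on 7 arrays of 8 with FSH and on 6 in control cells, so its ratio may be compressed.

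Complex II, succinate dehydrogenase, also belongs to the tricarboxylic acid cycle. All 4 of its genes were below 0, with a median of -0.048, and none passed the test, the lowest adjusted p being 0.565. SDHA, the flavoprotein, had ratios of -0.36, -0.06, 0.10 and 0.14, and SDHB, the iron-sulfur protein, of -0.21, -0.06, 0.02 and -0.13. Both had values on either side of 0. The membrane anchors were at -0.0435 ± 0.0402 for SDHC and -0.049 ± 0.156 for SDHD. SDHC differed least between replicates, from -0.08 to -0.0001, whereas SDHD ran from -0.56 in replicate 4 to 0.37 in replicate 1. The intervals of all 4 genes lay within 0.5 of 0. Without replicate 3 the median was -0.087.

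Complex III had 8 tested genes, 5 above 0 and 3 below, with a median of 0.058. It was 0.038 without replicate 3 and -0.029 without replicate 4. Its catalytic cytochrome c1, CYC1, had ratios of -0.06, 0.33, -0.41 and 0.52, so that replicates 2 and 4 lay above 0 and 1 and 3 below. The mean was 0.09 ± 0.17. The core protein UQCRC2 was at -0.11 ± 0.10 and its partner UQCRC1 at 0.11 ± 0.31. Of the small subunits, UQCRB, which sits near a quinone site, was at 0.12 ± 0.06 with an adjusted p of 0.517, the lowest of the complex. UQCRQ was below 0 in all 4 replicates, from -0.15 to -0.01, with a mean of -0.07 ± 0.04 (adjusted p = 0.593). UQCRH and UQCR10 were at 0.023 ± 0.087 and -0.034 ± 0.055.

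Complex IV, cytochrome c oxidase, had the highest share of genes above 0, with 11 of 13 and a median of 0.10. The median was 0.115 without replicate 3. COX7A2, the widely expressed form of subunit VIIa, had ratios of 0.37, 0.06, 0.30 and 0.22 by its brightest probe and of 0.46, 0.23, 0.32 and 0.31 by its dimmer probe. Both probes were above 0 on all 8 arrays. Their means were 0.24 ± 0.06 (adjusted p = 0.302 in limma, 0.0715 with the block) and 0.33 ± 0.05 (0.215 and 0.018). COX7A1, the muscle form of the same subunit, was at 0.10 ± 0.07. COX7A2L, a relative that links complexes III and IV, was at -0.08 ± 0.09.

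COX6B2, the testis form of subunit VIb, was above 0 in all 4 replicates, at 0.40, 0.37, 0.06 and 0.21, with a mean of 0.26 ± 0.07 (adjusted p = 0.314). It averaged -0.09 with FSH in Cy5 and 0.61 with FSH in Cy3. COX6B1, the usual form, was above 0 in all 4 as well, at 0.04, 0.06, 0.16 and 0.15. For COX8B, a muscle form in cattle, the ratios were 0.03, 0.31, 0.02 and 0.42, and its mean of 0.19 ± 0.09 joined orientations of opposite sign. With FSH in Cy5 it was below 0 on 4 arrays of 4 and averaged -0.36. With FSH in Cy3 it was above 0 on 4 of 4 and averaged 0.75. COX5A, COX5B, COX6A1 and COX8A had means between -0.021 and 0.07. For COX5B a spot was flagged on 1 array, so 1 of its replicate values rests on a single array. COX4I1 and NDUFAB1, subunits that the symbol rule leaves out, were at 0.18 ± 0.06 and 0.11 ± 0.10, with adjusted p of 0.355 and 0.754.

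Complex V had 9 of 16 genes above 0 and a median of 0.014, which was -0.019 without replicate 3. DMAC2L, at 0.08 ± 0.08, is counted among them only by its platform symbol ATP5S. The catalytic head was near 0 in its main subunits: ATP5F1A (alpha, ATP5A1 in the platform annotation) was at -0.016 ± 0.041 and ATP5F1B (beta, ATP5B) at -0.08 ± 0.05. Their intervals were -0.12 to 0.09 and -0.20 to 0.05. Their probes had mean log2 intensities of 15.11 and 15.09, and whether ratios are compressed in such bright probes was not tested. ATP5F1C (gamma, ATP5C1), the shaft that turns inside the head, was above 0 in all 4 replicates on each of its 3 probes. The brightest probe gave 0.16, 0.19, 0.15 and 0.14, the tightest agreement between replicates among the members of lowest p, with a mean of 0.16 ± 0.04 (adjusted p = 0.285 in limma, 0.175 with the block). The second gave 0.32, 0.40, 0.42 and 0.25, with a mean of 0.35 ± 0.05 (0.202 and 0.0395), yet it was above 0 on 5 arrays of 8 only and carried a dye effect of -0.33. The dimmest was at 0.13 ± 0.05.

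ATP5F1D (delta, ATP5D) was high in replicates 1, 2 and 4, at 0.30, 0.61 and 0.39, and at -0.18 in replicate 3. Its mean was 0.28 ± 0.14 with an adjusted p of 0.504. Without replicate 3 the blocked fit gave 0.43 with an adjusted p of 0.0228. ATP5PO (ATP5O), which ties the head to the peripheral stalk, was below 0 in every replicate, at -0.10, -0.29, -0.16 and -0.16, with a mean of -0.18 ± 0.05 (adjusted p = 0.308 in limma, 0.19 with the block). In the peripheral stalk 3 of 4 genes were below 0, with a median of -0.12. The 3 genes of the c-ring, ATP5MC1, ATP5MC2 and ATP5MC3, encode the same mature protein and lay between -0.10 and 0.014. ATP5IF1 (ATPIF1), which inhibits ATP synthase and is not matched by the rule under its older name, had ratios of 0.72, 0.34, -0.39 and 0.07 and a mean of 0.18 ± 0.19 (adjusted p = 0.773).

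**Figure D3:**
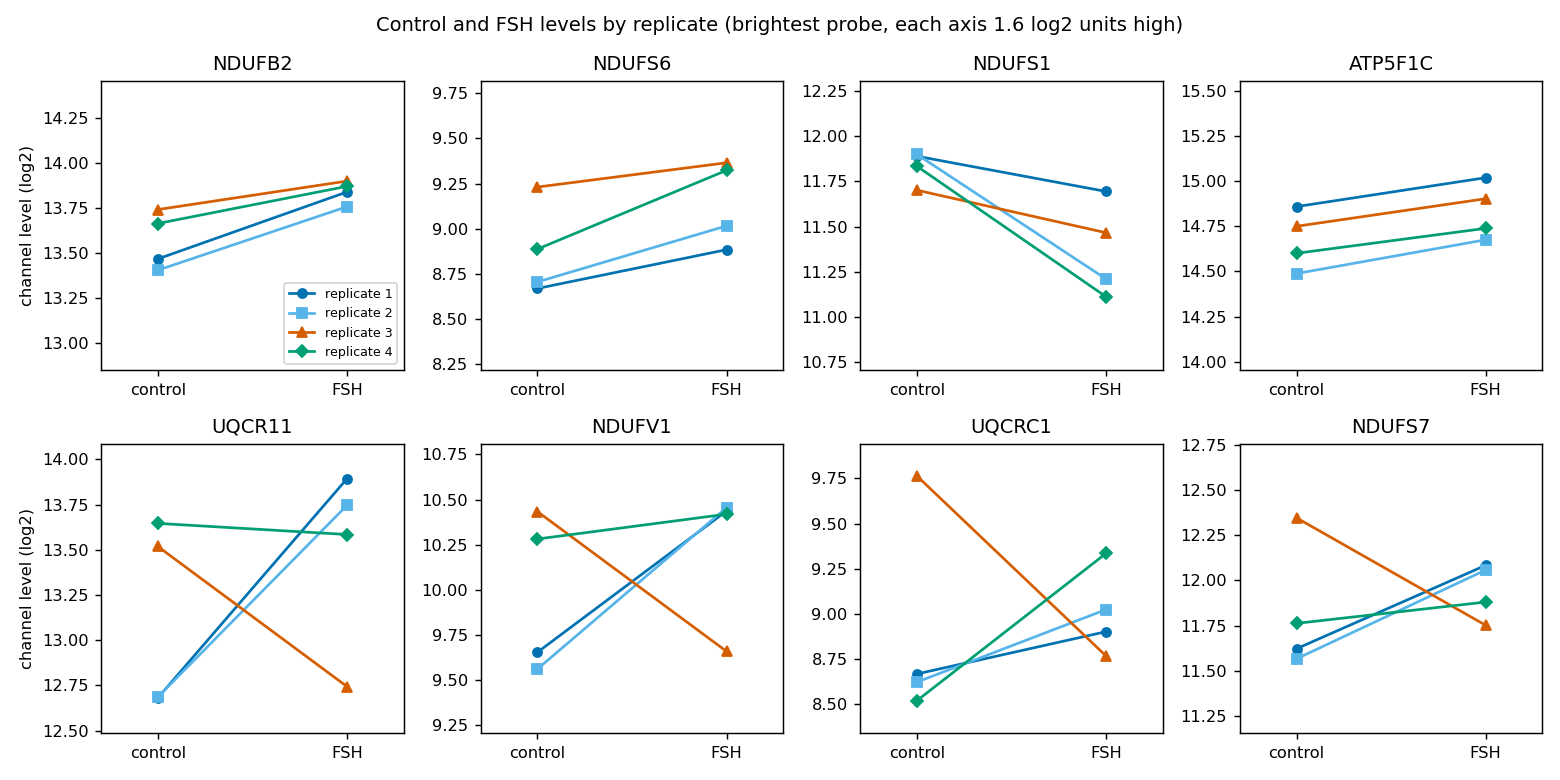
Channel level (log2, vertical axis) in control and FSH-treated cells for 8 genes by their brightest probe, with a line for each replicate and axes that all span the same number of log2 units. The upper genes run the same way in all 4 replicates, and in the lower genes replicate 3 runs down while replicates 1 and 2 run up.

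Some members differed strongly between control and FSH within a replicate, but not in 1 direction. The following were chosen for their range over the replicates after the values were seen. UQCR11 (UQCR), a small subunit of complex III, had control levels of 12.68, 12.69, 13.52 and 13.65 and FSH levels of 13.89, 13.75, 12.74 and 13.58. It was thus 1.21 and 1.06 higher with FSH in replicates 1 and 2, 0.77 lower in replicate 3, and at -0.06 in replicate 4. The mean of 0.36 ± 0.38 had an adjusted p of 0.778 and an interval of -0.62 to 1.34. Ratios were likewise above 0 in replicates 1 and 2 and below 0 in replicate 3 for NDUFV1, at 0.78, 0.89, -0.77 and 0.14, and for NDUFS7, at 0.46, 0.49, -0.59 and 0.12. The NDUFS7 values join orientations of opposite sign. With FSH in Cy5 it was above 0 on 0 arrays and averaged -0.37, and with FSH in Cy3 it was above 0 on 3 and averaged 0.61.

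UQCRC1 ran from -0.996 in replicate 3 to 0.81 in replicate 4 on its brightest probe. Its second probe gave 0.06, -0.24, 0.32 and -0.16, of opposite sign in replicates 2, 3 and 4, so the probes of this gene disagree. NDUFB5 was at 0.24 and 0.08 in replicates 1 and 2 and at -0.82 and -0.64 in replicates 3 and 4. A ratio above 0 in replicates 1, 2 and 4 and below 0 in replicate 3 was found for 11 members (14.1%), among them NDUFA3, NDUFB7, NDUFS7, NDUFV1, UQCRC1 and ATP5F1D, and for 8.92% of all named genes. The reverse was found for 6 members (7.69%) and for 9.36% of all. Without replicate 3, the blocked fit gave 0.60 for NDUFV1 (adjusted p = 0.0413), 0.48 for UQCRC1 (0.043), 0.49 for NDUFB7 (0.0307) and 0.74 for UQCR11 (0.101). With all replicates its adjusted p was 0.742, 0.954, 0.376 and 0.676. The second UQCRC1 probe was at -0.11 without replicate 3 (0.668). These genes are given here because replicate 3 opposed replicates 1 and 2. Leaving it out removes the opposing value, so the lower p-values are no separate support.

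Across the 78 members, ratios of replicates 1 and 2 correlated at 0.70. Replicate 3 correlated at -0.52 with replicate 2 and at -0.31 with replicate 1. For replicate 4 the values were -0.001, 0.35 and 0.05 against replicates 1, 2 and 3. Over the 72 members with a mean log2 intensity over 9, replicates 1 and 4 were at -0.018 and 2 and 4 at 0.34. Over the 4909 named genes above the same limit these values were 0.48 and 0.70. The points share arrays and culture, and genes are not independent, so these are descriptions.

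**Figure D4:**
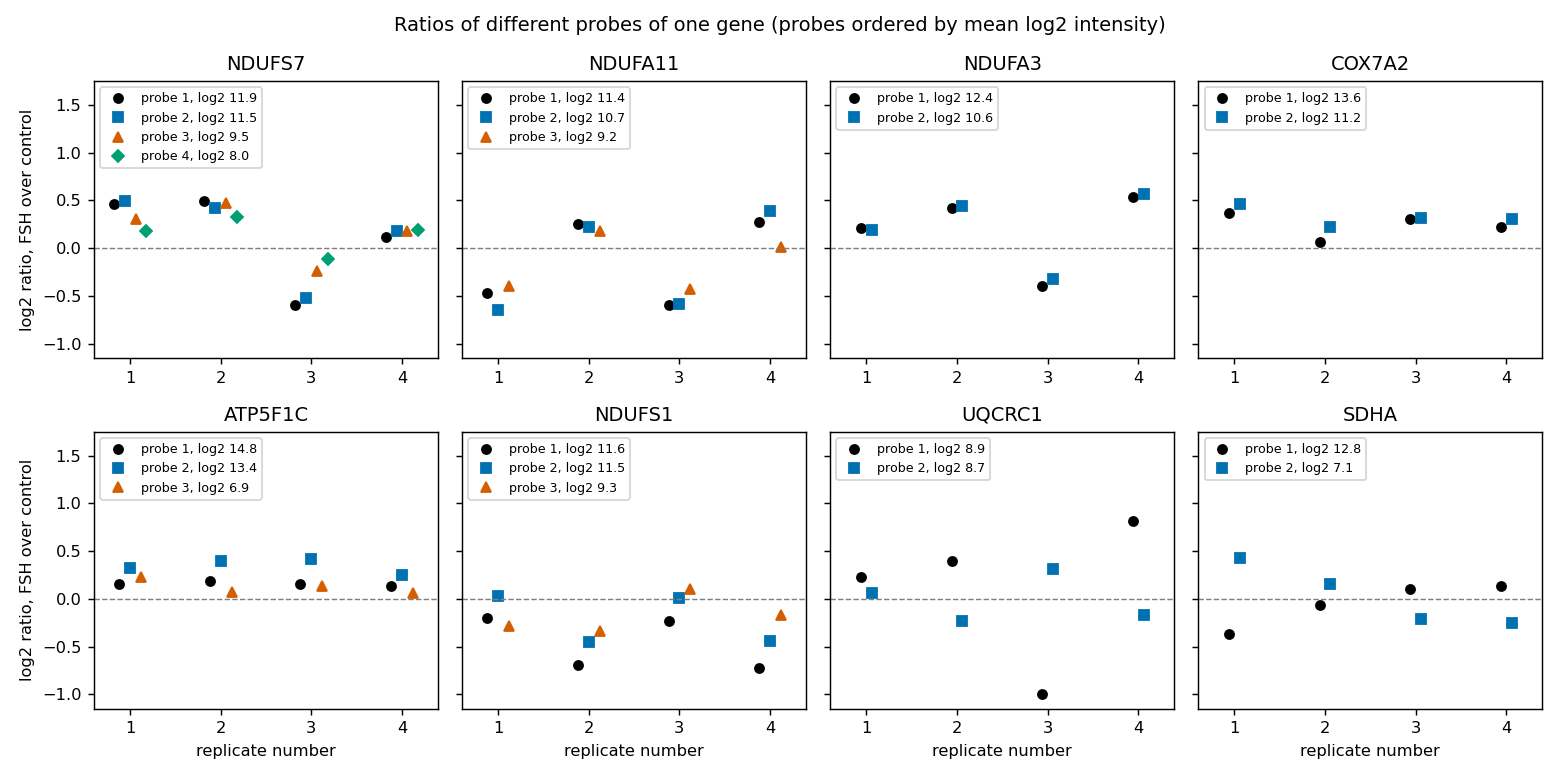
Log2 ratio of FSH over control (vertical axis) in each replicate (horizontal axis) for the tested probes of 8 genes, with the mean log2 intensity of each probe in the key. Probes of NDUFS7, NDUFA11 and NDUFA3 follow each other, those of UQCRC1 and SDHA do not.

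Different probes of a gene were mostly close in their mean. Among the 32 members with over 1 tested probe, the highest and the lowest probe differed by a median of 0.066 and by at most 0.31, in DMAC2L (ATP5S). In 8 of them the probes had opposite signs, and in 3 they differed by over 0.2. The 4 probes of NDUFS7 were all above 0 in replicates 1, 2 and 4 and below 0 in replicate 3, where they ran from -0.59 to -0.12, smaller in size for the dimmer probes. The 3 probes of NDUFA11, an accessory subunit of the membrane arm, were all below 0 in replicates 1 and 3 and above 0 in 2 and 4. The brightest gave -0.47, 0.26, -0.59 and 0.28. Both probes of NDUFA3, another accessory subunit, had 0.54 and 0.57 in replicate 4 and -0.39 and -0.33 in replicate 3. By contrast the brightest SDHA probe gave -0.36 in replicate 1, where its dim second probe gave 0.43. The brightest COX6A1 probe, at a mean log2 intensity of 15.16, had a mean ratio of 0.015, and its dimmer probes 0.13 and 0.16. For COX5A the brightest, at 15.11, had 0.07, and the dimmer probes lay between 0.0189 and 0.0782. Agreement between probes did not extend to the dye orientations. The brightest probes of NDUFS7, NDUFA11 and NDUFA3 averaged -0.37, -0.44 and -0.07 with FSH in Cy5. With FSH in Cy3 they averaged 0.61, 0.17 and 0.46.

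The dye effect was called for far more member probes than the FSH difference. It was tested in a separate limma fit over the 4 replicates, on the mean Cy5 over Cy3 ratio of each dye-swap pair. Its adjusted p was under 0.05 for 88 of 123 member probes and 21631 of all 36528. In 48 of 78 genes (61.5%) the mean with FSH in Cy5 and the mean with FSH in Cy3 had opposite signs, which was so for 51.1% of all 13603 tested named genes. With a mean log2 intensity over 9 these shares were 59.7% of 72 members and 35.9% of 4909 named genes. The medians by complex also differed between the orientations. Complex I was at -0.030 with FSH in Cy5 and at 0.15 with FSH in Cy3, complex II at 0.033 and -0.17, complex III at 0.042 and -0.012, complex IV at 0.0032 and 0.17, and complex V at 0.045 and -0.024. The direction of 4 of the 5 complex medians was thus not shared by the orientations. For complex IV it was, although 7 of 13 genes were above 0 in the first orientation and 8 in the second. The mean over a dye-swap pair, used for all values above, removes a dye effect that is equal on both arrays. Of the genes called in the blocked fit, NDUFB2 was at 0.13 and 0.41 in the orientations, NDUFS6 at 0.23 and 0.32, NDUFS1 at -0.58 and -0.34 and COX7A2, by its called probe, at 0.34 and 0.32. The called probe of ATP5F1C was at 0.018 with FSH in Cy5 and at 0.68 with FSH in Cy3.

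**Figure D5:**
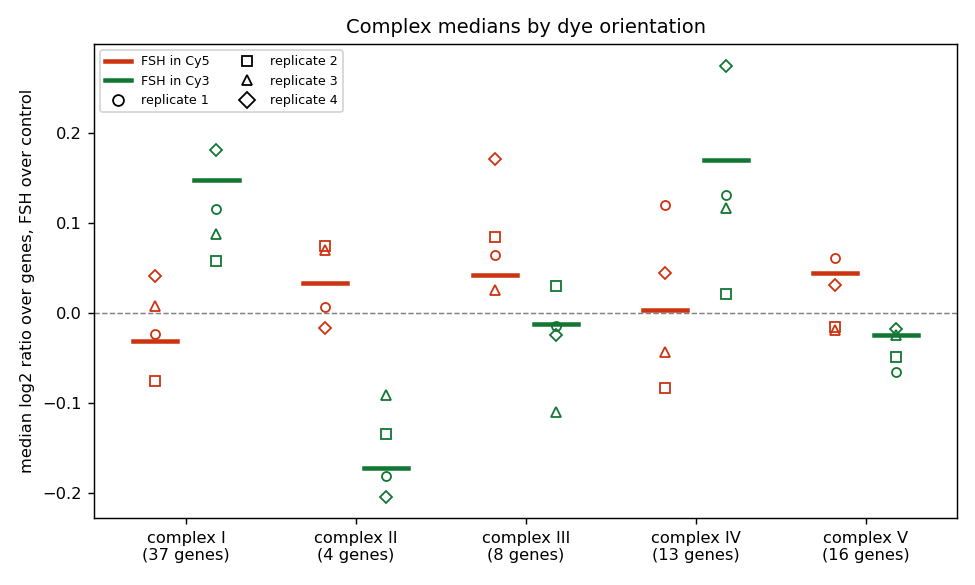
Median log2 ratio of FSH over control over the genes of each complex (vertical axis), with FSH in Cy5 (red) and in Cy3 (green). Open symbols are the medians in each replicate and bars the medians of the gene means. Complex I lies at -0.030 and 0.15 and complex II at 0.033 and -0.17.

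Companion lists of the same pathway are described by their counts and medians. Of 32 tested assembly factors, which build the complexes but are not part of them, 12 were above 0 and 20 below, with a median of -0.064. In limma 0 passed, and 6 had an unadjusted p under 0.05, 2 of them higher, beside 16.0% of all 13603 named genes taken in the same way. The blocked fit called 3, 1 of them higher, beside 5.22% of all named genes. SCO1, a copper chaperone of complex IV, had ratios of 0.49, 0.81, 0.22 and 0.79, above 0 on all 8 arrays, with a mean of 0.58 ± 0.12 (adjusted p = 0.251 in limma, 0.0201 with the block). ATPAF1, which assembles the F1 head, was at -0.39 ± 0.06 and below 0 on all 8 arrays (0.215 and 0.0185). BCS1L, which inserts the iron-sulfur protein into complex III, was at -0.35 ± 0.08 (0.272 and 0.0404).

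Of 21 tested genes of the tricarboxylic acid cycle and electron donors, 5 were above 0 and 16 below, with a median of -0.092. In limma 0 passed, with 3 at an unadjusted p under 0.05, all lower, beside the 16.0% of all named genes, and the blocked fit called 0 as well. Without replicate 3 the blocked fit called 2 higher and 1 lower, beside 10.9% of all named genes. Those called higher, named after their values were seen, had the means furthest above 0 in the list: SUCLA2, a subunit of succinyl-CoA synthetase, at 0.86 ± 0.35 and OGDH, of the oxoglutarate dehydrogenase complex, at 0.67 ± 0.27. Both were below 0 in replicate 3, and their adjusted p was 0.428 and 0.433 in limma and 0.00758 and 0.00489 in the blocked fit without that replicate. The gene called lower, also named after its value was seen, was CS, citrate synthase, at -0.21 ± 0.08. It was at 0.07 in replicate 3, with an adjusted p of 0.418 in limma and 0.0334 in the blocked fit without that replicate. The 3 of lowest unadjusted p were IDH3B at -0.19 ± 0.05, IDH3A at -0.43 ± 0.12, both subunits of the NAD-linked isocitrate dehydrogenase, and ETFDH at -0.43 ± 0.15. IDH3A and IDH3B were below 0 on all 8 arrays. The 16 tested regulators of mitochondrial biogenesis had 8 on each side and a median of -0.0046. In limma 0 passed, with 2 at an unadjusted p under 0.05, both lower, and the blocked fit called 0. Without replicate 3 the blocked fit called 1, MYC, which was lower, beside the 10.9% of all named genes. MYC, named after its value was seen, had ratios of -0.43, -0.71, 0.38 and -1.10 and a mean of -0.46 ± 0.25. Its adjusted p was 0.543 in limma and 0.0122 in the blocked fit without replicate 3. SSBP1, which binds mitochondrial DNA, was at -0.22 ± 0.06, POLG2, a subunit of the mitochondrial DNA polymerase, at -0.38 ± 0.14 and PPRC1, a coactivator, at -0.23 ± 0.10. Named after their values were seen, PPARGC1A, the coactivator best known for inducing respiratory genes, was at -0.018 ± 0.052, and TFAM, which packs and transcribes mitochondrial DNA, at 0.08 ± 0.09. The probes of PPARGC1A and TFAM were dim, with mean log2 intensities of 7.20 and 7.15, so their ratios may be compressed.

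The 10 carriers, porins and uncoupling proteins were evenly split, 5 above 0 and 5 below, with a median of -0.0011. Among 77 mitochondrial ribosomal proteins 37 were above 0 and 40 below, with a median of -0.042, and the blocked fit called 1 higher and 3 lower, beside the 5.22% of all named genes. The mitochondrial part of steroid synthesis had 4 tested genes, all above 0, with a median of 0.49. FDX1, which carries electrons to the enzyme that cleaves cholesterol, had ratios of 0.37, 0.59, 0.34 and 0.61, above 0 on all 8 arrays, with a mean of 0.48 ± 0.07 (adjusted p = 0.202 in limma, 0.0314 with the block). TSPO was at 0.33 ± 0.10. CYP11A1, the cholesterol side-chain cleavage enzyme, ran at 0.60, 1.55, -0.38 and 1.24, lowest in replicate 3 as NDUFV1 and UQCR11 were.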

How the data were processed

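RNA was amplified in 2 rounds with T7 polymerase and coupled to Cy3 or Cy5, per the labels' protocols. The deposited scanner tables give spot intensity and local background at 532 and 635 nm, with no background subtraction or normalisation by the authors in these columns. A deposited series-wide ratio table was not used. Gene symbols come from the platform annotation, updated through RefSeq (17 members). No build is named with the probes.

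Mean intensities were corrected with normexp (offset 50) and log2 ratios normalised by loess within arrays in limma 3.58.1 (R 4.3.3). Control spots and flagged spots had no weight. The sign was set so that a positive ratio is higher with FSH, and arrays of the same number were averaged (4 replicates). A probe was kept when 4 or more of the 8 arrays had a channel above the 95th percentile of 153 negative controls. Intercept models with eBayes gave two-sided p-values, adjusted by Benjamini-Hochberg over 36528 probes. Errors are moderated standard errors, and p-values of this fit measure the spread between these 4 replicates. The blocked fit uses the 8 arrays with 1 within-replicate correlation (0.722) for all probes. Its p-values thus do not measure the spread between replicates alone. For NDUFV1 its standard error was 0.22, against 0.30 over replicate means. Channel levels were scaled by Aquantile. The number of arrays limits precision. A gene is given by its brightest tested probe. Same-numbered arrays deviated together (r 0.787 to 0.924), which is the basis for taking them as pairs. The model was tested on simulated data. Genes named are the 3 of lowest unadjusted p in each complex and a panel of subunits, up to 3 genes of each companion list, and those said to be chosen after their values were seen. Members and lists were chosen with earlier results of these data known. Alternatives covered background correction, centring, filters, the replicate block, variance priors, single orientations, left-out replicates and updated symbols.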

Additional observations from a re-analysis of the deposited data

Results flagged for a closer look

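One named gene had a replicate far from the others. ATP5F1A had a log2 ratio of -0.08 in replicate 2, while the other 3 replicates lay between -0.0024 and 0.01. The gap was 0.837 of the whole range, above Dixon's critical value for 4 values. Of 30 genes tested in this way 1 was marked, where about 1.5 would be by chance.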

How the results depend on the processing

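The count of member probes past an adjusted p of 0.05 was 0 in limma over replicate means, with or without background correction, with median centring, without or with a stricter filter, with a trended robust prior, with updated symbols and without any 1 replicate (0 to 0). It was 5 with the replicate block and dye term (1277 of all probes) and 4 with the replicate block and no dye term (1432). It was 3 with FSH in Cy5 only (1983 of all probes) and 3 with FSH in Cy3 only (471), and 11 with the replicate block without replicate 3 (2630). The median over all members was 0.0042 with FSH in Cy5 only and 0.073 with FSH in Cy3 only. By complex, FSH in Cy5 only gave -0.0305 for complex I, 0.0331 for II, 0.0032 for IV and 0.0447 for V. FSH in Cy3 only gave 0.1477 for complex I, -0.1723 for II, -0.0124 for III and -0.0238 for V. Median centring gave 0.0612 for complex V. Leaving out each replicate gave -0.0287 to 0.0651 for complex III and -0.0187 to 0.0136 for complex V. The cause was not tested. No other complex median moved by more than the spread between replicates. Most probes on these arrays lay near background, which limits dim genes such as COX6A2.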
